A study of Mus musculus with 12 samples.

Results

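The drug-inducible cytochrome P450 genes Cyp2b9, Cyp2b10, Cyp2b13, Cyp3a11, Cyp3a13, Cyp3a25, Cyp3a44 and Cyp3a59 were followed together with Por, the reductase that all of these enzymes depend on. They were chosen by name, with earlier results of these data known, and each gene level is the sum of its listed protein-coding transcripts. Of these 9 genes, 8 were in the table of 14188 protein-coding genes, with 11 of its 29883 transcripts, and Cyp2b13 was not analysed here. Liver RNA of 12 male mice of a hepatic fibrosis model, 6 given PZH and 6 Control mice, was sequenced. The labels name no engineered allele, and all 12 mice were 6 weeks old at the start and received the hepatotoxin carbon tetrachloride (CCl4) by intraperitoneal injection until they were killed in week 8. The PZH mice were also given Pien Tze Huang (PZH), a traditional Chinese medicine, by gavage every day, and the Control mice received water instead. The labels name the strain C57BL/8, whereas the study's methods name C57BL/6J. Every mouse of both groups received CCl4, so a level in uninjured liver was not analysed here.

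Cytochrome P450 enzymes of the Cyp2b and Cyp3a subfamilies sit in the endoplasmic reticulum of hepatocytes and oxidise drugs, steroids, bile acids and other foreign or endogenous lipophilic compounds. Many are switched on by the ligand-activated nuclear receptors CAR (gene Nr1i3) and PXR (gene Nr1i2), which pair with RXRα and bind response elements built from hexamers close to AGGTCA or AGTTCA. Cyp2b10 is the classical CAR target of mouse liver and Cyp3a11 the classical PXR target. Cyp2b9, Cyp2b13 and Cyp3a44 are known as female-predominant genes. Por encodes NADPH-cytochrome P450 oxidoreductase, the flavoprotein that hands electrons to the microsomal P450 enzymes.

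The stretch from 250 to 121 bases before the RefSeq start site is given for 5 members in assembly GRCm38.p6. It is read 5′ to 3′ on the gene's strand. Cyp3a25 (chr5:146009738-146009867, minus strand), Cyp3a59 (chr5:146079008-146079137, plus strand) and Cyp3a11 (chr5:145879975-145880104, minus strand) each hold 2 hexamers of the kind named above, matched by letters alone. Cyp3a13 (chr5:137921740-137921869, minus strand) and Cyp2b10 (chr7:25897408-25897537, plus strand) hold none. Binding of a receptor to these hexamers was not tested. Capitals mark AGGTCA or AGTTCA on either strand.
Cyp3a25: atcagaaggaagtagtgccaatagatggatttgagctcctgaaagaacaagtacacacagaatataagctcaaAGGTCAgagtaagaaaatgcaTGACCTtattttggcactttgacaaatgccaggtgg
Cyp3a59: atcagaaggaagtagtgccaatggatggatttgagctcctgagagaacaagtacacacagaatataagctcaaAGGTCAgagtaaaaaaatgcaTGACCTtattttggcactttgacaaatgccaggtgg
Cyp3a11: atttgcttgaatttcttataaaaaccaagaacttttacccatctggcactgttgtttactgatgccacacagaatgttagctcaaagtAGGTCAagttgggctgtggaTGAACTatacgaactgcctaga
Cyp3a13: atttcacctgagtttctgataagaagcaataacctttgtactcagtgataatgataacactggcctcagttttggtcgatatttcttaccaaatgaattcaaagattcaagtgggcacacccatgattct
Cyp2b10: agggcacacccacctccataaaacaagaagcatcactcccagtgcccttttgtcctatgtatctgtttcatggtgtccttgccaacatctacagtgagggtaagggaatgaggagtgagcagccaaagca
In Cyp3a25 and Cyp3a59 one hexamer began 177 bases before the start and a second, on the opposite strand, 156 bases before it, with 15 bases between them. In Cyp3a11 a similar arrangement lay at 162 and 142 bases before the start, with 14 bases between. The listed Cyp3a11 transcript begins 110 bases upstream of that RefSeq start, so the hexamers lie nearer to its own start. For Cyp3a25 and Cyp3a59 the 2 starts were 0 and 9 bases apart. The Cyp3a25 and Cyp3a59 stretches differed at 3 of 130 bases and at 0 bases of the hexamers. Over the full windows of 300 bases, from 250 before to 50 after the start, a single hexamer was also present in Cyp2b9 and in Cyp3a44, and none was found in Cyp2b10, Cyp3a13 or Por. Such a hexamer is common, being held by 27.7% of the 32544 distinct RefSeq promoter windows. The share of windows with 2 hexamers was not counted, and opposite strands 14 or 15 bases apart were not among the spacings searched. No member window held a pair with the spacings searched, which were direct repeats 3, 4 or 5 bases apart and everted repeats 6 bases apart, and 0.0891% of all windows did. Distal enhancers lie outside these windows.

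The P450 genes lie beside close relatives on chromosomes 5 and 7 of GRCm38, so the sequence they share was measured. Cyp2b10 (chr7:25897620-25926624, plus strand) and Cyp2b9 (chr7:26173411-26210661, plus strand) each had 1 listed transcript of 9 exons. Cyp3a44, Cyp3a11, Cyp3a25 and Cyp3a59 lie in this order between chr5:145773983 and chr5:146113287, and Cyp3a13 lies apart at chr5:137892932-137921619. Each Cyp3a gene had 1 listed transcript of 13 exons. The listed transcripts of Cyp3a25 and Cyp3a59 were 97.0% identical, those of Cyp3a11 and Cyp3a44 93.5%, and those of Cyp2b9 and Cyp2b10 87.5%. Of all windows of 100 bases, 6.05% of Cyp3a25, 5.61% of Cyp3a59 and 5.37% of Cyp3a44 also occurred in another gene, against 0.312% of Cyp3a11, 1.18% of Cyp2b9 and 0 for Cyp2b10, Cyp3a13 and Por. Reads of shared stretches could be split between relatives by the authors' quantification, which leaves the levels of Cyp3a25, Cyp3a59 and above all Cyp3a44 less certain than the others.

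Levels are given as FPKM, the sequenced fragments scaled to transcript length and to library size, so that genes of different length can be compared. The depth that the steps between low FPKM values imply was 26.8 M to 42.8 M fragments per library. On this basis Cyp3a11 rested on at least 95100 fragments in every mouse and Cyp2b10 on at least 195, but Cyp3a44 on only about 5.67 to 58.0. The hepatocyte markers Alb and Ttr had mean levels of 31248 and 3347 FPKM, whereas all 4 T, B and NK cell markers averaged under 1 FPKM. The labels give no sequencing batch, so no comparison could be repeated within batches. In bulk liver, fewer cells of a type and less RNA per cell cannot be told apart. The summed level of the 6 hepatocyte markers was 41720.1 to 57643 FPKM in the PZH mice and 25129.9 to 38106 FPKM in the Control mice, most of it being Alb. The mean log2(FPKM + 1) of the same 6 markers, which weights each gene equally, overlapped at 11.26 to 11.67 with PZH and 10.94 to 11.34 without, and the part of either measure in the results was not tested.

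The first question was which members differed between the livers of CCl4-treated mice with and without PZH. Cyp2b10, Cyp3a25, Cyp3a44 and Por were higher in the PZH group and Cyp3a13 was lower, at an adjusted p below 0.05 (limma on log2(FPKM + 1), adjusted over all genes by Benjamini-Hochberg). Cyp3a11, Cyp3a59 and Cyp2b9 did not pass. Of all 14188 genes, 12.7% were called higher and 32.1% lower by the same rule. The balance of calls over all genes depended on scaling, with 28.3% of the calls being higher as deposited and 50.6% after a median-ratio scale factor per mouse. The members' 4 higher and 1 lower calls were obtained with both. By a 2-fold change on the log2(FPKM + 1) scale with an unadjusted p below 0.05, a rule that the study applied to transcripts, Cyp2b10 alone passed at gene level, where 1.52% of all genes passed as higher and 2.5% as lower. At transcript level 2 of 11 passed, Cyp2b10-202 and Por-209, both higher, where 1.24% of all transcripts passed as higher and 1.99% as lower. In none of the 8 genes were the 6 PZH values fully separated from the 6 Control values, which was the case for 24.3% of all genes.

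**Figure D1:**
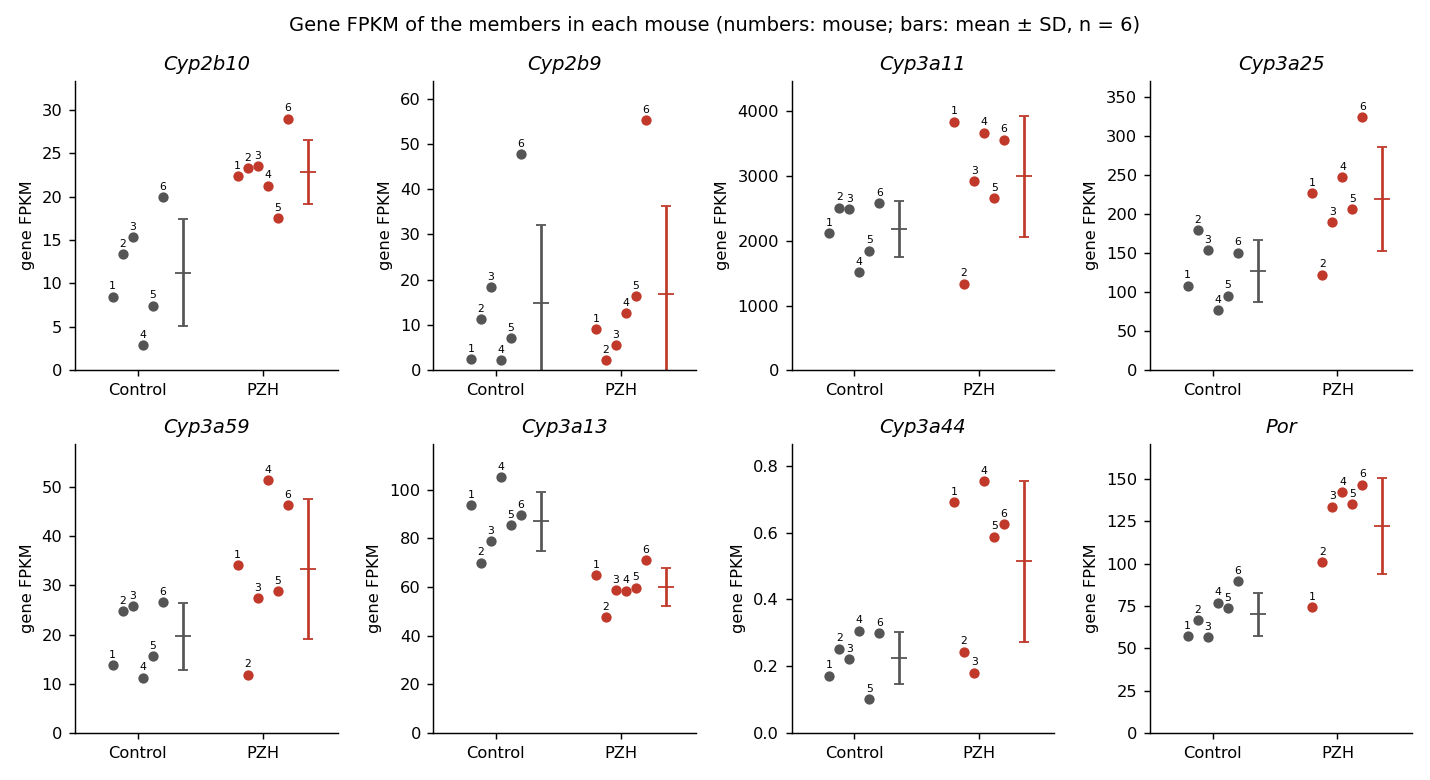
Gene FPKM (y axes, linear from 0) of the 8 members in each of the 6 Control and 6 PZH mice, with mouse numbers beside the points and mean ± SD as bars, cut at 0 for Cyp2b9. PZH 2 sits at or near the bottom of its group for Cyp3a11, Cyp3a25, Cyp3a59 and Cyp2b9 but not for Cyp2b10, and the Cyp3a13 points of the PZH mice sit low.

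Cyp2b10, the CAR target, had the largest gene-level difference of the members on the log2(FPKM + 1) scale, whereas the ratio of means was larger for the low Cyp3a44. Its level was 17.5, 22.8 and 29.0 FPKM (lowest, median, highest) in the PZH mice and 2.87, 10.9 and 20.0 FPKM in the Control mice. Of the PZH mice, 5 lay above every Control mouse, and PZH 5 at 17.5 FPKM lay below Control 6 at 20.0 FPKM. The mean was 22.8 ± 3.72 FPKM with PZH and 11.2 ± 6.16 FPKM without (SD, n = 6), a ratio of 2.03. The log2 fold change was 1.14 (SE 0.33, adjusted p = 0.0128), and the exact permutation test, two-sided over every relabelling of the mice, gave p = 0.0043. The spread differed too, with a coefficient of variation of 16.3% in the PZH mice and 54.8% in the Control mice.

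Cyp2b9, its neighbour on chromosome 7 and a female-predominant gene, did not separate the groups. It ranged from 2.17 over a median of 10.8 to 55.2 FPKM in the PZH mice, and from 2.17 over 9.14 to 47.7 FPKM in the Control mice. Mouse 6 was the highest of both groups, and the 2 ranges almost coincided. The log2 fold change was 0.24 (SE 0.74, adjusted p = 0.823), so the spread between mice was far larger than the difference of the means. With 1 mouse left out it lay between -0.21 (without PZH 6) and 0.69 (without Control 6). Without Control 1 it was -0.07 and without Control 4 it was -0.10.

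Cyp3a11, the main Cyp3a enzyme of mouse liver, was by far the most abundant member, at rank 12 of all genes by mean level. It reached 1338, 3242 and 3842 FPKM in the PZH mice (lowest, median, highest) and 1510.4, 2303 and 2578 FPKM in the Control mice. All PZH mice but 1 exceeded every Control mouse, and PZH 2 lay below all of them. The means were 2999 ± 934 and 2176 ± 432 FPKM (SD, n = 6), and the log2 fold change of 0.41 (SE 0.24) did not pass the test (adjusted p = 0.180, exact permutation p = 0.145). This outcome rested on PZH 2. Without that mouse the log2 fold change was 0.63 with an adjusted p of 0.00572, and Cyp3a59 also passed, which brought the members called higher to 6 beside 1 lower, where 12.3% of all genes were then higher and 32.6% lower. PZH 2 was the lowest of its group for 5 of the 8 members, and for Cyp2b10 it was the third highest.

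Cyp3a25, another Cyp3a enzyme of adult liver, rose with PZH. Its level was 122.6, 217 and 325 FPKM in the PZH mice (lowest, median, highest) and 76.9, 129.5 and 179 FPKM in the Control mice. All PZH mice but 1 were above all Control mice, and PZH 2 lay within the Control range. The means of 219.8 ± 66.8 and 127 ± 39.7 FPKM (SD, n = 6) differed by a ratio of 1.72 (log2 fold change 0.78, SE 0.24, adjusted p = 0.0181, exact permutation p = 0.0173). Cyp3a59, the near copy of Cyp3a25 on the other strand, had a similar shift without passing. It was at 11.9, 31.4 and 51.4 FPKM with PZH and at 11.3, 20.2 and 26.6 FPKM without, again with 5 PZH mice above and PZH 2 near the bottom of the Control range. Its log2 fold change was 0.68 (SE 0.32, adjusted p = 0.104), and 0.93 with an adjusted p of 0.00924 when PZH 2 was left out. Cyp3a25 stood at 7.15 ± 1.79 times the level of Cyp3a59 in the PZH mice and 6.62 ± 0.854 times in the Control mice (SD, n = 6), with overlapping ranges.

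Cyp3a13, a Cyp3a gene that is also well expressed in intestine, was the single member that fell. Its level was 47.5, 59.2 and 71.1 FPKM in the PZH mice and 70.1, 87.5 and 105 FPKM in the Control mice. Again 5 of 6 PZH mice lay below all Control mice, and PZH 6 at 71.1 FPKM just exceeded Control 2 at 70.1 FPKM. The log2 fold change was -0.53 (SE 0.11, adjusted p = 0.00173, exact permutation p = 0.0043). The median of all genes was itself shifted to -0.11 on this scale, so relative to it the difference was -0.42. With median-ratio scaling the log2 fold change was -0.34 and the adjusted p 0.0439.

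Cyp3a44, a female-predominant gene, was barely detected in these male livers. It was at 0.180, 0.606 and 0.754 FPKM in the PZH mice and 0.102, 0.237 and 0.306 FPKM in the Control mice. Here 4 PZH mice were above every Control mouse, while PZH 2 and PZH 3 lay within the Control range. The means of 0.514 ± 0.241 and 0.225 ± 0.0783 FPKM (SD, n = 6) gave a ratio of 2.28, but a log2 fold change of only 0.29 (SE 0.10, adjusted p = 0.0353) on the log2(FPKM + 1) scale, which compresses low levels. The call was lost when PZH 1, 4, 5 or 6 or Control 1, 3 or 5 was left out, with adjusted p from 0.0544 to 0.0800.

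Over the 5 listed Cyp3a genes together, the summed level was 1521 to 4168 FPKM with PZH and 1704 to 2845 FPKM without. Cyp3a11 made up 90.3 ± 1.58% of the sum in the PZH mice and 90.2 ± 0.787% in the Control mice (SD, n = 6). The share of Cyp3a13 was 1.96 ± 0.606% against 3.82 ± 1.33%, and that of Cyp3a25 6.78 ± 1.13% against 5.19 ± 0.738%, in both cases with overlapping ranges.

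Por, the electron donor, rose with PZH. Its gene level was 74.3, 134 and 147 FPKM in the PZH mice (lowest, median, highest) and 56.3, 70.2 and 89.7 FPKM in the Control mice. Of the 6 PZH mice, 5 lay above every Control mouse, and PZH 1 was within the Control range. The means of 122 ± 28.4 and 70.0 ± 12.8 FPKM (SD, n = 6) gave a difference of 0.77 on the log2 scale (SE 0.17, adjusted p = 0.00269, exact permutation p = 0.0065). PZH 2, low for most of the P450 genes, had a Por level of 101 FPKM, which within its group was above PZH 1 only.

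Por alone had several listed transcripts, which allowed its isoforms to be set beside the gene level. Por-201, of 2636 bases and 16 exons, held most of the gene's FPKM, and Por-202, of 2606 bases and 15 exons, most of the remainder. Por-203 and Por-209 are short models of 505 and 747 bases with 4 and 7 exons, and Por-209 begins upstream at chr5:135674585. Por-201 was higher with PZH at 91.6 ± 22.5 against 52.2 ± 6.97 FPKM (log2 fold change 0.77, SE 0.17, adjusted p = 0.00775). Por-209 was also higher, at 2.47, 4.50 and 6.37 FPKM with PZH and 0.693, 1.57 and 1.79 FPKM without, and it was the transcript whose 6 PZH values all exceeded the 6 Control values (log2 fold change 1.16, SE 0.18, adjusted p = 0.000835, exact permutation p = 0.0022, the smallest the design can give). Groups without overlap were found for 12% of all transcripts. Por-202 (log2 fold change 0.71, SE 0.24, adjusted p = 0.0563) and Por-203 (0.39, SE 0.18, adjusted p = 0.154) did not pass. Of the 11 listed transcripts of the members, 4 were called higher (Cyp2b10-202, Cyp3a25-201, Por-201 and Por-209) and 1 lower (Cyp3a13-201), against 5.73% and 14% of all transcripts.

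The share of Por FPKM held by each transcript was tested apart from the level. Por-209 made up 3.01 to 4.35% with PZH and 1.23 to 2.68% in Control. The ranges did not overlap, as for 1.48% of the 21454 transcripts tested, but the difference of 1.61 percentage points (SE 0.49) had an unadjusted p of 0.0069 and an adjusted p of 0.273 and was not called. The shares of Por-201 (74.8 ± 1.70% with PZH, 75.2 ± 6.12% without), Por-202 and Por-203 overlapped between the groups. Limma thus called 0 of the 4 shares after adjustment, with 1 of 4 at an unadjusted p below 0.05, where 0.345% of all transcript shares were called. Por-209 rested on only about 13.9 to 144 fragments per mouse.

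**Figure D2:**
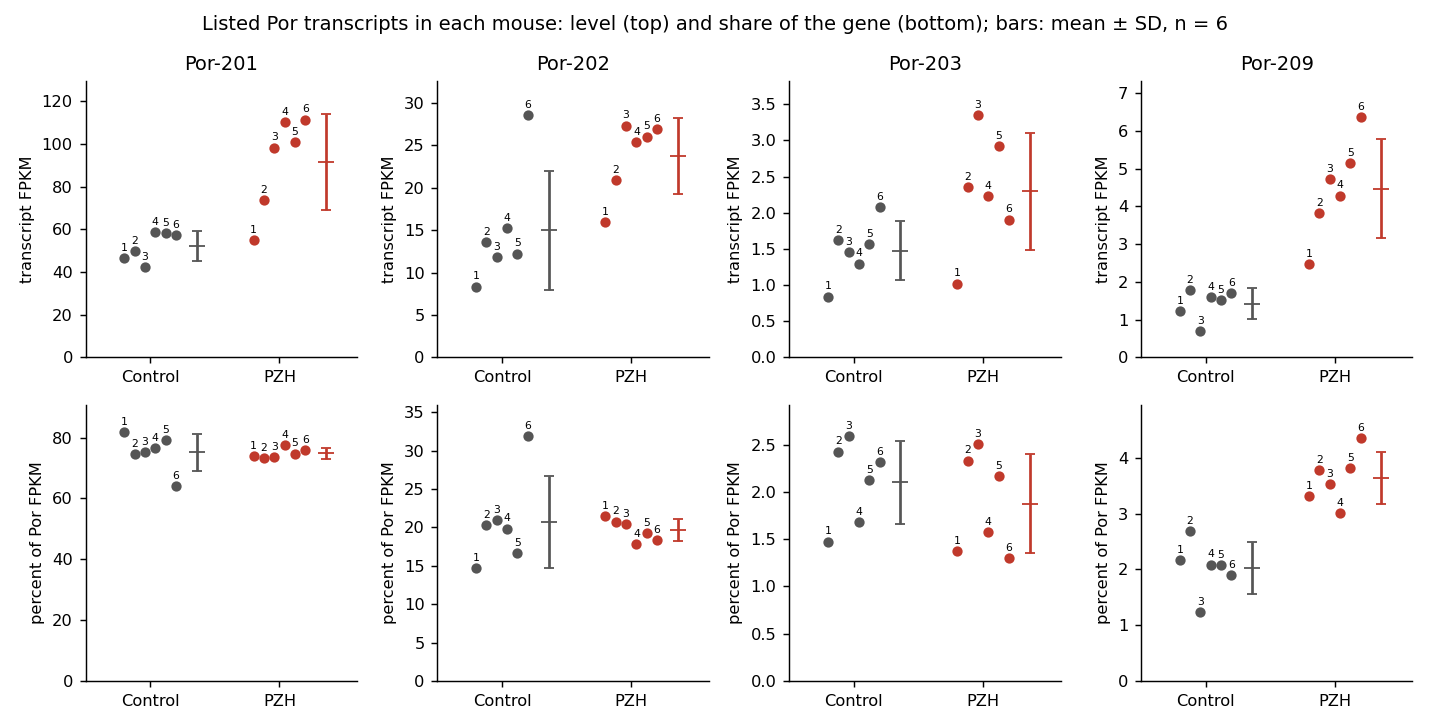
Transcript FPKM (top row) and percent of Por FPKM (bottom row) of Por-201, Por-202, Por-203 and Por-209 in each Control and PZH mouse, with mean ± SD (n = 6) as bars. Por-209 is the transcript whose PZH points lie above all Control points in both rows, while the share of Por-201 averages 74.8% with PZH and 75.2% without.

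Ordered by mean FPKM over the 12 mice, the members ran Cyp3a11, Cyp3a25, Por, Cyp3a13, Cyp3a59, Cyp2b10, Cyp2b9 and Cyp3a44. Cyp3a11 exceeded Cyp3a25 in 12 of 12 mice, with a ratio of means of 14.9. Cyp3a25 exceeded Por in 11 of 12 mice. Por and Cyp3a13 changed places between the groups, Por being higher in 6 of 6 PZH mice and in 1 of 6 Control mice. Cyp3a13 exceeded Cyp3a59 in all 12 mice, and Cyp3a59 exceeded Cyp2b10 in 11. Cyp2b10 was above Cyp2b9 in 9 of 12 mice, and their ranges overlapped in both groups. By group mean Cyp2b10 was the higher of the pair with PZH (22.8 against 16.8 FPKM) and the lower without (11.2 against 14.9 FPKM). The Control mean of Cyp2b9 included Control 6 at 47.7 FPKM. Cyp2b10 was above Cyp2b9 in 4 of 6 Control mice, and by Control median too (10.9 against 9.14 FPKM). Cyp3a44 was below Cyp2b9 in every mouse.

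Within each group the members were compared across the 6 mice, separately because the groups differ in level. These are 56 relations (28 pairs in 2 groups) on log2(FPKM + 1), with exact permutation tests that for Spearman's rho cannot go below p = 0.0028. None passed an adjustment over all 56, the lowest adjusted p being 0.102 for Pearson's r and 0.156 for Spearman's rho, while 9 Control pairs and 6 PZH pairs had an unadjusted p below 0.05 for r. Cyp3a25 and Cyp3a59 went together in the PZH mice (r = 0.94, exact p = 0.0083, adjusted 0.102; rho = 0.94, exact p = 0.0167, adjusted 0.187) and in the Control mice (r = 0.94, exact p = 0.0236, adjusted 0.102; rho = 0.71, exact p = 0.136, adjusted 0.363). Without the 2 mice farthest from the median of Cyp3a25, r was 0.93 in both groups. These 2 genes are close copies, so the split of reads between them is uncertain, and its part in that value was not tested.

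Cyp2b10 and Cyp3a11 had r = 0.98 in the Control mice (exact p = 0.0028, adjusted 0.102; rho = 0.94, exact p = 0.0167, adjusted 0.187) and r = 0.11 in the PZH mice (exact p = 0.761, adjusted 0.888; rho = -0.03, exact p = 1, adjusted 1). Without the 2 mice farthest from the median of Cyp2b10, r was 0.96 in the Control and -0.59 in the PZH mice. Cyp3a11 and Cyp3a13 had r = -0.73 in the Control mice (exact p = 0.0972, adjusted 0.237; rho = -0.54, exact p = 0.297, adjusted 0.594) and r = 0.87 in the PZH mice (exact p = 0.0403, adjusted 0.150; rho = 0.49, exact p = 0.356, adjusted 0.642). Without the 2 mice farthest from the median of Cyp3a11, r was -0.55 and 0.42, so the PZH value leaned on PZH 2. The difference of r between the groups was not tested. Control 4, the lowest Control mouse for 5 members, was the highest for Cyp3a13 and Cyp3a44, and PZH 2 was low for Cyp3a13 as well as Cyp3a11.

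**Figure D3:**
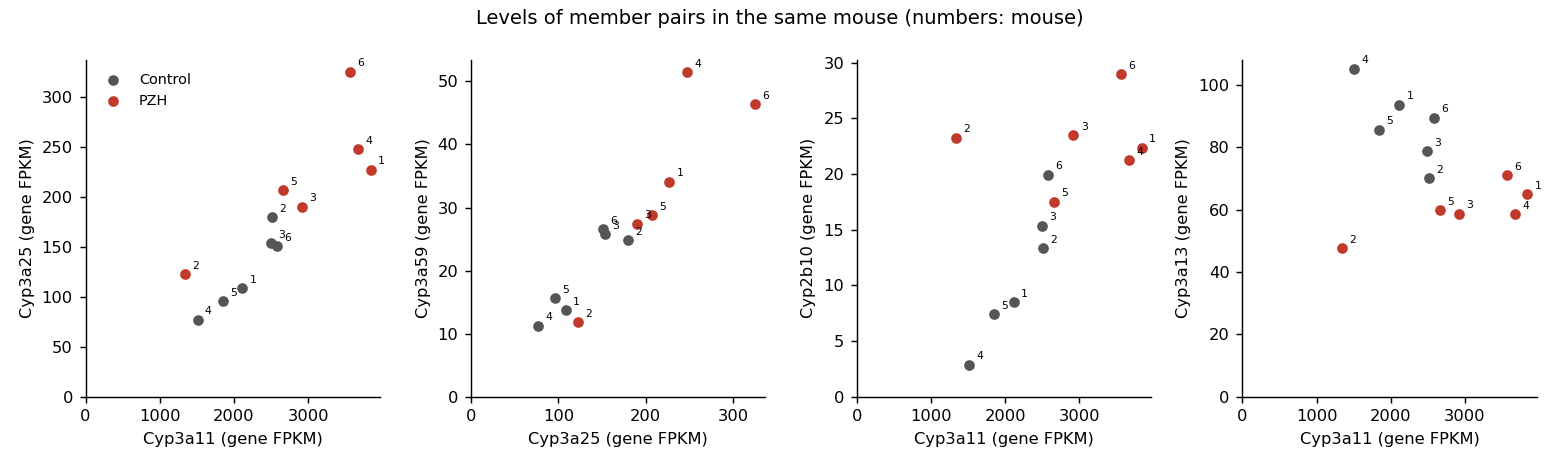
Gene FPKM of 4 pairs of members in the same mouse (linear axes from 0, Control grey, PZH red, mouse numbers beside points). The Control points tend to rise for Cyp3a11 with Cyp3a25 and Cyp2b10 and to fall for Cyp3a11 with Cyp3a13, but no relation between members passed adjustment. PZH 2 combines the lowest Cyp3a11 with a Cyp2b10 level like that of the other PZH mice.

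The receptors and co-regulators that act on these genes were then read from a list of 13, all of them in the table. By the same limma test, 4 were higher with PZH, 5 were lower and 4 did not pass, with a median log2 fold change of -0.09 beside -0.11 for all genes. Both xenobiotic receptors were among the higher ones. Nr1i3 (CAR) was at 11.8, 17.9 and 29.9 FPKM in the PZH mice and 4.17, 7.51 and 11.9 FPKM in the Control mice (log2 fold change 1.15, SE 0.26, adjusted p = 0.00278), with PZH 1 alone inside the Control range. Nr1i2 (PXR) was at 18.3, 26.0 and 29.0 FPKM with PZH and 10.0, 14.8 and 18.1 FPKM without (log2 fold change 0.74, SE 0.14, adjusted p = 0.00102), without overlap. Cebpa, a transcription factor of differentiated hepatocytes, was higher by 0.55 (SE 0.11, adjusted p = 0.00141). The coactivator Ppargc1a was higher by 0.39 (SE 0.13, adjusted p = 0.0296), a call that was lost in 7 of the 12 fits with 1 mouse left out (PZH 3, 4 or 6 or Control 1, 2, 3 or 6).

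From the list of 13, 5 genes fell and 4 rose, where 32.1% of all genes were lower and 12.7% higher. Cebpb, a transcription factor of the acute phase response, fell by 1.20 on the log2 scale (SE 0.19, adjusted p = 0.000311), from 9.78 ± 2.98 to 3.58 ± 0.809 FPKM (SD, n = 6), without overlap. Ppp2r1a, the scaffold subunit of protein phosphatase PP2A, fell by 0.65 (SE 0.08, adjusted p = 5.35e-05), the chaperone gene Hsp90ab1 fell by 0.58 (SE 0.12, adjusted p = 0.00138), and Dnajc7, the CAR cytoplasmic retention protein, fell by 0.48 (SE 0.09, adjusted p = 0.000893). Hnf4a fell by 0.30 (SE 0.08, adjusted p = 0.00937), but with median-ratio scaling its log2 fold change was -0.11 with an adjusted p of 0.250. Rxra (0.05), the glucocorticoid receptor gene Nr3c1 (0.11), Ncoa1 (-0.09) and the corepressor gene Ncor1 (-0.24, adjusted p = 0.0538) did not pass. The 6 PZH values of Ncor1 all lay below its Control values (exact permutation p = 0.0022), and groups did not overlap for 24.3% of all genes. Ncor1 passed when PZH 1, 2 or 5 was left out, with adjusted p of 0.0413 to 0.0437. Over all alternatives its log2 fold change lay between -0.28 and -0.06, with a limma adjusted p of up to 0.604.

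**Figure D4:**
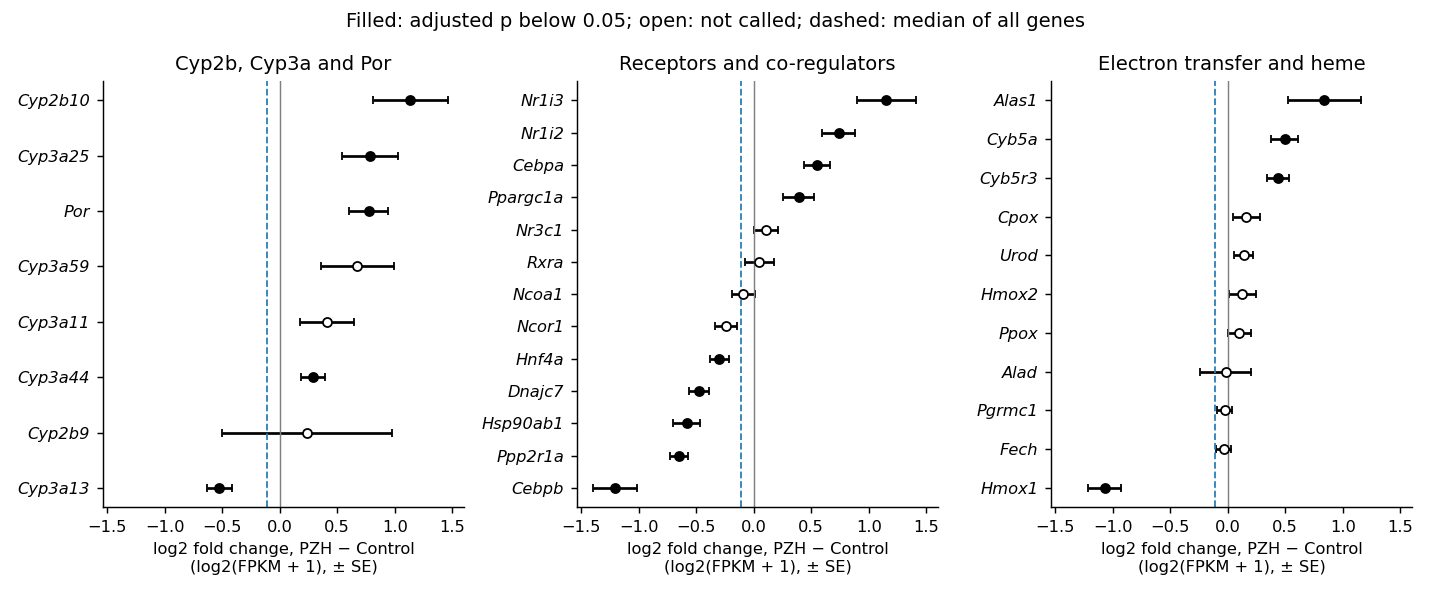
Log2 fold change of PZH over Control on the log2(FPKM + 1) scale (x axis, ± SE from limma) of the members, the 13 receptors and co-regulators and the 11 genes of electron transfer and heme. Filled points passed the adjusted test, open points did not, and the dashed line at -0.11 is the median of all genes; Cyp2b10, Nr1i3 and Alas1 lead their panels and Cyp3a13, Cebpb and Hmox1 close them.

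Microsomal P450 enzymes also need heme and can draw on cytochrome b5, and 11 such genes were listed. Of these, 3 rose, 1 fell and 7 did not pass, where 12.7% of all genes were higher and 32.1% lower. Cyb5a, microsomal cytochrome b5, was higher at 253 ± 45.9 against 178 ± 21.6 FPKM (log2 fold change 0.50, SE 0.12, adjusted p = 0.00409). Cyb5r3, its reductase, was higher at 129.9 ± 16.4 against 95.5 ± 8.78 FPKM (0.43, SE 0.10, adjusted p = 0.00265). Alas1, the rate-limiting enzyme of hepatic heme synthesis, was at 21.7, 33.3 and 88.5 FPKM with PZH and 14.6, 21.3 and 38.9 FPKM without, so that 2 PZH mice exceeded all Control mice (0.84, SE 0.32, adjusted p = 0.0456). Hmox1, the inducible heme-degrading oxygenase, fell by 1.07 on the log2 scale (SE 0.14, adjusted p = 0.000111), without overlap. The later heme synthesis genes Alad, Urod, Cpox, Ppox and Fech, the heme-binding Pgrmc1 and the constitutive Hmox2 had log2 fold changes between -0.03 and 0.16 and did not pass.

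Other genes known as CAR or PXR targets in mouse liver gave a wider view. Their list, like the other lists, was chosen with earlier results of these data known. Of 27 listed, 26 were in the table, 17 of them higher, 2 lower and 7 not called, with a median log2 fold change of 0.72. Of all genes 12.7% were called higher and 32.1% lower. Some genes also stand on another list, such as Cyp1a2 (pericentral) and Cyp2a4 (female-biased). Cyp2c55 had the largest change, at 16.4 ± 5.56 against 1.77 ± 0.932 FPKM (log2 fold change 2.64, SE 0.25, adjusted p = 1.56e-05). The bile acid and drug uptake transporter gene Slco1a4 was at 32.2 ± 10.4 against 7.59 ± 4.98 FPKM (2.06, SE 0.34, adjusted p = 0.000413). Gstm1, a glutathione transferase and the most abundant of the list, was higher at 973 ± 105 against 561 ± 161 FPKM (adjusted p = 0.00149), while the aldehyde dehydrogenase gene Aldh1a1 did not pass (0.44, adjusted p = 0.0600). The 2 lower genes, named after their values were seen, were the glutathione transferase gene Gsta1 (-1.24, adjusted p = 5.21e-05) and the efflux transporter gene Abcc4 (-0.99, adjusted p = 0.00753). Cyp2c, Gstm and Mup genes belong to families of close relatives, and how far reads were split among those was not measured here.

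Sex-dependent, zonal and acute phase genes were counted because Cyp2b and Cyp3a genes are known to vary with all of these. Beside these counts, 12.7% of all genes were called higher and 32.1% lower. Of 11 female-biased genes in the table, 4 were higher and 7 not called, with Acot3 (1.11) and Cyp39a1 (0.59) the largest called changes, while the abundant Cyp2a4 did not pass (-0.06, adjusted p = 0.932). Of 17 male-biased genes, 7 were higher and 2 lower, among them Nudt7 (2.05) and Selenbp2 (1.89), while the abundant Mup3 (-0.40, adjusted p = 0.0549) did not pass and Mup20 (0.91) did. Pericentral genes mark the zone around the central vein where Cyp2e1 and most drug-inducible P450 enzymes reside. Of 15 such genes 11 were higher, with a median of 0.76. The others, named after their values were seen, were not called by limma. They were Glul (0.32, adjusted p = 0.114), Rhbg (0.26, adjusted p = 0.167), Slc13a3 (0.28, adjusted p = 0.147) and Oat, with the opposite sign (-0.49, adjusted p = 0.300). Cyp7a1, the rate-limiting enzyme of bile acid synthesis, was at 0.0970 to 8.92 FPKM in the Control and 35.5 to 155 FPKM in the PZH mice, and Cyp2e1, the enzyme that activates CCl4, at 132 to 299 and 607 to 1363 FPKM. Cyp1a2, another abundant pericentral P450 gene that was also counted among the CAR or PXR targets, was higher. Its level was 405 ± 198 against 95.9 ± 25.7 FPKM (SD, n = 6, limma adjusted p = 8.80e-05). Of 14 periportal genes 6 were higher and 1 lower, with a median of 0.31. The urea cycle genes Cps1 (log2 fold change 0.85) and Ass1 (735 against 362 FPKM), the aldehyde dehydrogenase gene Aldh1b1 (log2 fold change 1.44) and Alb (0.68) were among the higher ones. Of 14 acute phase genes 13 were lower, with a median of -1.18. The serum amyloid genes Saa2 (-2.73) and Saa1 (-2.47) had the largest log2 fold changes, and the abundant Hpx (-0.80) and Fga (-1.31) also fell. Saa3, named after its value was seen, did not pass (-1.06, adjusted p = 0.102).

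Markers of the liver cell types were called in both directions, only as lower, or not at all, depending on the list. Of all genes 12.7% were called higher and 32.1% lower. Of the 6 hepatocyte markers 3 were higher (Alb, 0.68; Ttr, 0.68; Cps1, 0.85) and 1 lower (Fgb, -1.17), the lower one being an acute phase gene too. Among cholangiocyte markers 1 of 5 fell (Sox9, -1.64), and the most abundant, Spp1, was not called (-0.39). Of 7 stellate cell and fibroblast markers 1 rose (Col3a1, 0.62) and 2 fell (Acta2, -0.92; Des, -0.47, named after its value was seen), and Col1a2 was not called (0.40). Of 6 macrophage and Kupffer cell markers 2 rose (Clec4f, 0.60; Csf1r, 0.38) and 1 fell (Cd68, -0.32, named after its value was seen), and the abundant Lyz2 (0.29) and Cd5l (0.07) were not called. Of 5 sinusoidal endothelial markers 2 fell (Lyve1, -0.62; Pecam1, -0.29), and the abundant Clec4g (-0.02) and Stab2 (0.06) were not called. Limma called 0 of the 4 lymphocyte and 0 of the 3 neutrophil markers, with 0 at an unadjusted p below 0.05 in both lists. The most abundant of these were Cd79a (-0.10) and Nkg7 (0.01), and S100a8 (-0.31) and Retnlg (0.04). The summed marker levels of every cell type list other than hepatocyte overlapped between the groups. By mean log2(FPKM + 1) the cholangiocyte list alone did not overlap, at 2.15 to 2.48 with PZH and 2.51 to 2.90 without. Sox9 was the only called gene of that list. Its Krt7 (-0.04), Krt19 (-0.04) and Epcam (0.30), named after their values were seen, were not called. The part of any cell type list in the members' values was not tested.

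**Figure D5:**
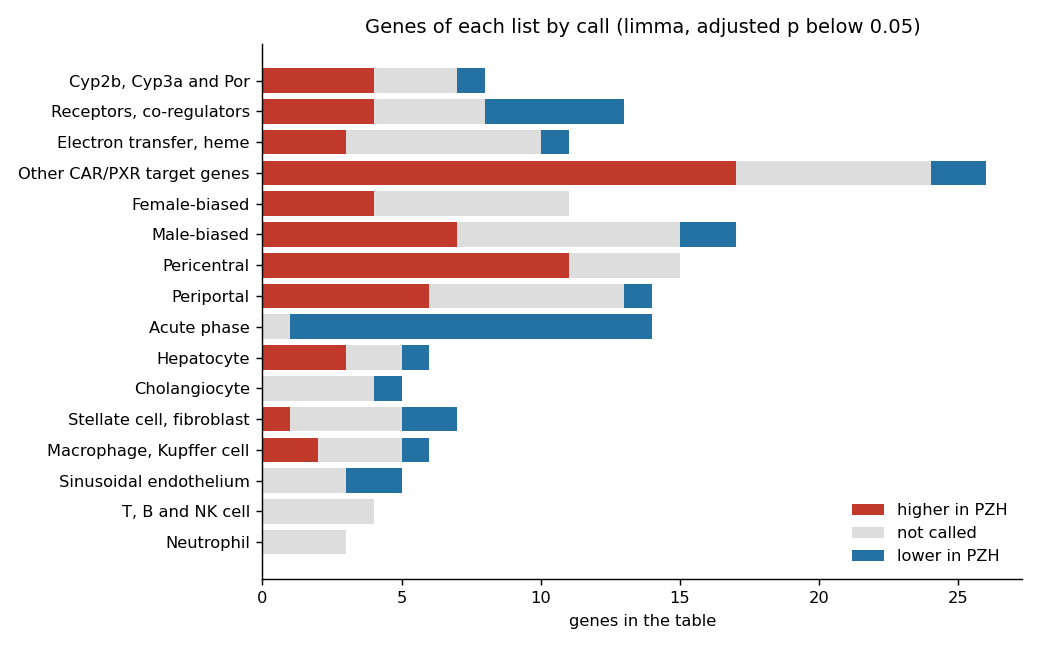
Number of genes in the table (x axis) of each list called higher with PZH, not called, or called lower with PZH by limma at an adjusted p below 0.05. Pericentral and CAR or PXR target genes are mostly in the higher class and acute phase genes in the lower class, where 12.7% of all genes were higher and 32.1% lower.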

How the data were processed

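Liver RNA of 6 PZH and 6 Control mice was measured by RNA-seq. Per the labels, the RNA was depleted of ribosomal RNA. Per the study's methods, the authors made strand-specific libraries, trimmed reads with Trimmomatic, aligned them to GRCm38 with HISAT2 and estimated transcript levels with StringTie. The deposited protein-coding table holds FPKM per Ensembl transcript, normalized by the authors to length and library size, and read counts were not used here. The lncRNA table was not used. All 12 sample columns matched a label, and no further column was present. Identifiers were paired with gene symbols through GENCODE M21 (29876 of 29883 transcripts matched), and the FPKM of a gene is the sum over its transcripts. FPKM summed to 325302 to 370426 per mouse.

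Tests were limma 3.58.1 in R 4.3.3 on log2(FPKM + 1) over all genes or transcripts, without a filter or covariate, with Benjamini-Hochberg adjustment and a call at 0.05. A pseudocount of 1 understates changes of low genes. Isoform shares were fitted with limma for genes averaging 1 FPKM or more with 2 or more transcripts. The labels call the 12 mice separate samples. Single values were also tested by a two-sided exact permutation test over all labellings, and pairs of members by exact permutation within groups, the pair tests being added after the levels were seen. Simulated data had 14188 genes with independent noise, 200 of them changed by 1 on the log2 scale. On these the fit recovered 90.5% of the changed genes and called 14 unchanged ones. Most members differed by less than 1, and recovery of such smaller changes was not measured. Named were the members and their transcripts, all receptors, co-regulators, electron transfer and heme genes of the lists used here, and from each other list the 2 most abundant genes and the 2 with the largest called change. Genes named outside this rule are marked in the text. Besides these, 2 genes are not reported here. None of the other listed genes Cyp2b19, Cyp2b23, Cyp3a16, Cyp3a41a, Cyp3a41b and Cyp3a57 was analysed here. The members and lists were chosen with earlier results of these data known. Promoter windows are from RefSeq (GRCm38.p6, 8 of 8 genes matched), scored with Python 3.11.15. Alternatives were another pseudocount, a filter on low FPKM, 2 other scalings, a mean-variance trend, a replicate block, the most abundant transcript in place of the gene, and each mouse left out in turn.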

Additional observations from a re-analysis of the deposited data

Results flagged for a closer look

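Cyp3a11 in PZH 2 lay far below the other PZH mice. At 1338 FPKM, its gap to the next lowest mouse, PZH 5 at 2659 FPKM, was 0.651 of the whole range of the group on the log2(FPKM + 1) scale, above Dixon's critical value for 6 samples. This was 1 of 16 member and group combinations examined, and chance alone flags about 1 in 20.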

How the results depend on the processing

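The count of members called at gene level was 5 and ranged from 4 to 7 over 18 alternatives, with 3 to 6 higher and 1 lower throughout. At transcript level 5 of 11 were called (4 higher, 1 lower). With 1 mouse left out the count ranged from 3 to 7 and the number higher from 2 to 6, and it was 3, with 2 higher, without PZH 4, PZH 6, Control 1 or Control 5. With median-ratio scaling, 0 transcripts were lower, as Cyp3a13-201 no longer passed; the cause was not tested. Over all genes, median-ratio scaling gave 2807 higher and 2739 lower calls against 1798 and 4560 as deposited, with a median log2 fold change of -0.0010 in place of -0.11. Of the 152 other genes on the lists, 55 were higher and 30 lower as deposited, and 70 were higher and 24 lower with median-ratio scaling. Cyp3a44 kept its sign in all 18 alternatives and lost its call in 7, each leaving out 1 mouse. It was left out of the fit by the filter on a mean FPKM of at least 1. Cyp2b10, Cyp3a13, Cyp3a25 and Por kept their direction and call in all 19 alternatives, with log2 fold changes of 0.84 to 1.33, -0.59 to -0.34, 0.65 to 0.97 and 0.71 to 0.96.

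Same-numbered mice of the 2 groups showed little common deviation over the genes, with correlations of -0.078 to 0.093. The value of 0.093 belonged to mouse 6, which was the highest of its group for 5 of the 8 members with PZH and in Control. Such correlations cannot tell whether same-numbered mice shared handling or a batch, as the labels do not give this. With the mouse number as a replicate block, 5 members were called (4 higher, 1 lower), and over all genes 1694 were higher and 4288 lower. For the share of Por-209 the block gave an adjusted p of 0.524.

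FPKM without counts limits the precision for Cyp3a44, Por-203 and Por-209, which rest on few fragments, and for the Cyp3a25 and Cyp3a59 pair, which share sequence. With 6 mice per group and 1 liver RNA sample each, p-values cover the spread between these mice.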

Other observations

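For 3 members, the genes whose deviations from the group means followed theirs most closely over the 12 mice were searched among 10941 genes with a mean of at least 1 FPKM. For Cyp2b10 these were Rhbdd3 (r = 0.90), Enpp2 (r = 0.89) and Nadk2 (r = 0.87), with r in the Control mice from 0.94 to 0.97 and in the PZH mice from -0.14 to 0.69. For Cyp3a11 they were the carboxylesterase genes Ces2a (r = 0.93) and Ces2e (r = 0.92) and the mitochondrial sulfur dioxygenase gene Ethe1 (r = 0.91). Ces2a had a log2 fold change of 0.03 (adjusted p = 0.895) and Ces2e one of 1.02 (adjusted p = 0.000571). For Por they were Bcl2l13 (r = 0.95), Rab43 (r = 0.94) and Arsa (r = 0.92), each with r of at least 0.85 within both groups. These correlations are the highest of many and are given as a description.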
